A study of Drosophila melanogaster with 3 samples.

Results

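Enterocytes rich in Jon66Ci and Jon99Fii, transcripts of Jonah proteases, were described in the adult female midgut of Drosophila melanogaster. They were found in the mature adult library as the 180 cells with the highest sum of 7 transcripts per 10000 UMIs (unique molecular identifiers, 1 for each captured transcript molecule), each cell with at least 10 such UMIs. The 7 genes were Jon66Ci, Jon99Fii, Jon65Aii, CG17571, CG7916, CG7953 and Ser8. The 180 cells were 180 of 1980 kept cells of the mature adult and of 5190 kept cells of the series. Because they were selected on these transcripts in these same cells, their levels of the 7 genes are a description and carry no test.

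Enterocytes are the large absorptive and secretory cells of the fly midgut. They arise from intestinal stem cells through enteroblasts, make digestive enzymes and take up nutrients, and enterocytes of different midgut regions make different sets of enzymes. The Jonah genes encode chymotrypsin-like serine proteases that are secreted into the gut lumen. Many lie in small genomic clusters, which can hold near-identical copies. Ser8 and CG17571 also encode serine proteases of the trypsin fold. No role was assigned here to CG7916 and CG7953.

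The study asked how the circadian clock emerges in the intestine and sequenced 1 library of dissociated cells at each of 3 stages, all female, collected at ZT0 (lights on) and labelled CantonS(per01 background), a strain that the methods call CantonS. The mature adults were 7 to 8 days old and the immature adults 1 day old, and the pupae were at the red-eye stage. Foregut and hindgut had been removed, and the pooled intestines were cut up and dissociated with elastase.

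The 3 libraries held between 2625 and 6835 barcodes and between 49734663 and 77966155 UMIs. Kept barcodes had between 200 and 4000 genes, between 1000 and 100000 UMIs and a mitochondrial share under 25%, the study's own limits, which left 1980 mature adult, 1197 immature adult and 2013 early pupal cells. Kept libraries shared at most 2 cell barcodes, and none of the 180 cells had a barcode seen in another library. With 1 library per stage there was no replicate, so the 95% intervals below cover counting error alone and leave out how animals or libraries vary.

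The sum that chose the cells ran between 166.7 and 541.4 UMIs per 10000 UMIs in the 180 cells, with a median of 245.3, and it had a median of 4.24 and a maximum of 165.4 in the 1800 other kept cells. The threshold did not fall in a gap. The 5 cells just inside had 170.9, 170.6, 169.1, 168.7 and 166.7, against 165.4, 165.1, 164.5, 162.8 and 162.2 in the 5 cells just outside. Within 20% of the lowest member lay 28 members above and 34 other cells below. In all, the 7 genes took 2.71% of the UMIs of the 180 cells, against 0.103% in the other kept cells and 0.366% in the 3694 mature adult barcodes with at most 1000 UMIs, which stand here for free RNA.

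**Figure D1:**
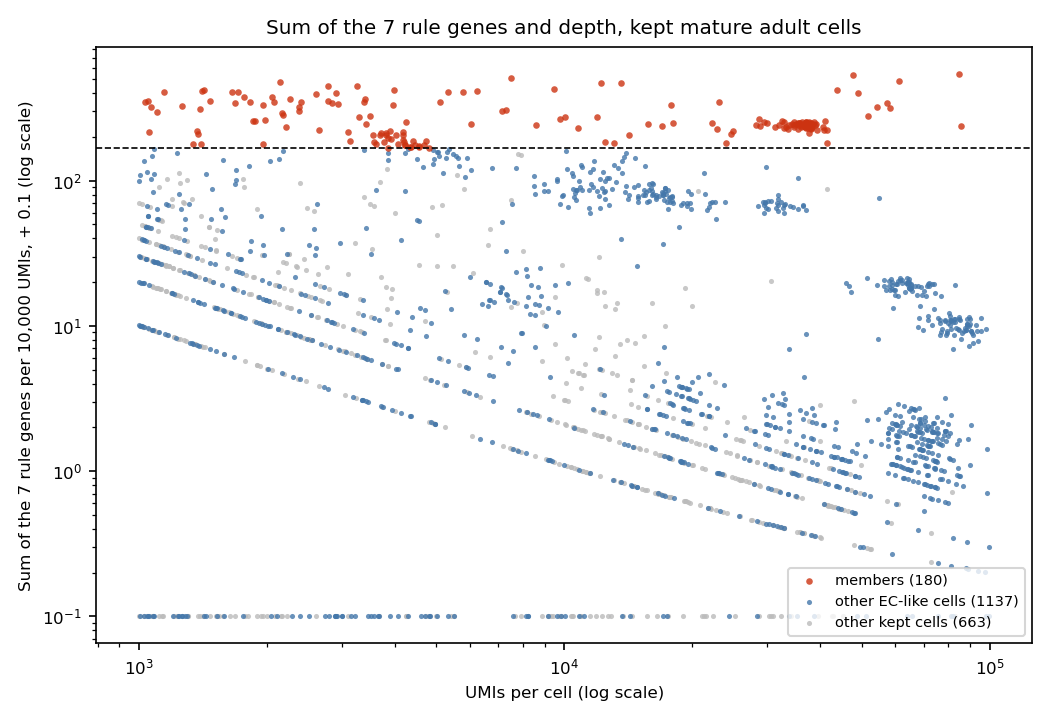
Sum of the 7 transcripts per 10000 UMIs (vertical, log scale, 0.1 added) against UMIs per cell (horizontal, log scale) in 1980 kept mature adult cells, with members in red, other enterocyte-like (EC-like) cells in blue, other kept cells in grey and a dashed line at the lowest member. Members span depths between 1035 and 85689 UMIs, and other cells reach up to 165.4, close under the line at 166.7.

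The 180 cells were shallower than the rest. They had a median of 8039.5 UMIs and 1018.5 genes, against 13791 UMIs and 1832 genes in the other kept cells, and a median mitochondrial share of 5.35%, against 5.75%. Their depths spread widely, with a median of 3276 UMIs in the shallower 90 cells and 36055.5 UMIs in the deeper 90 cells. Since levels below are summed UMIs scaled to the total of the same cells (CPM), the deeper 90 cells gave 3058820 of the 3346182 UMIs and carry most of the weight.

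The enterocyte label was checked against marker lists in clusters of all 1980 cells. Clusters named EC-like, from enterocyte transcripts, held 166 of the 180 cells, none was in a cluster named for stem cells (ISC-like) or enteroendocrine cells (EE-like), and 14 were in cluster 13, which stayed unnamed. Of the EC-like members, 84 lay in cluster 6, 73 in cluster 8, 7 in cluster 10, and 1 each in clusters 1 and 14. Cluster 8 consisted of members only, 73 of its 73 cells, while cluster 6 held 84 members among 166 cells. Members had a median of 3463.5 UMIs in cluster 6 and 36563 UMIs in cluster 8, so that depth and cluster went together. Cluster 13 had a median of 1459 UMIs over all its cells, and a cluster this shallow was left unnamed where no leading gene was a marker. At clustering resolution 1.0, all clusters that held members were named EC-like. The 7 genes that chose the cells were left out of the clustering and of the marker lists. Other Jonah genes, such as Jon44E and Jon99Fi, were on the enterocyte list, so the EC-like names are no independent check.

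The 7 chosen transcripts were not equally spread over the 180 cells. A total of 89 cells had UMIs of all 7 genes, 38 of 6, 32 of 5, 18 of 4 and 3 of 3. Jon65Aii, Jon99Fii and CG17571 made up 29.1%, 27.8% and 27.5% of the summed UMIs, and the most abundant of the 7 was Jon65Aii in 94 cells, CG17571 in 56 and Jon99Fii in 24. Jon66Ci, for which the cells are labelled, gave 3.96% of the sum and had no UMI in 49 of the 180 cells.

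Jon65Aii ranged between 0 and 166.1 UMIs per 10000 UMIs with a median of 83.5 in the 180 cells, and had a median of 0.268 and a maximum of 83.4 in the other kept cells. It was thus the only one of the 7 whose median in the members no other kept cell reached. CG17571 ranged between 0 and 318.9 with a median of 61.9, against a median of 0.126 and a maximum of 110.3, and 2 other cells lay above the members' median. Jon99Fii ranged between 0 and 162.6 with a median of 72.7, against a median of 0.589 and a maximum of 112.8, with 16 other cells above the members' median. At the members' median level, these 3 serine protease transcripts were thus rare or absent in the other cells, which the choice of cells by them favours.

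The remaining 4 marked the cells less well. Jon66Ci ranged between 0 and 105.3 with a median of 5.99, against a median of 0 and a maximum of 59.3 in other kept cells, 41 of which lay above the members' median. Ser8 had a median of 4.62 in the 180 cells, with 69 other cells above it, and CG7953 had a median of 2.31, with 204 other cells above it. CG7916 had a median of 0.799, and 440 other kept cells lay above it, so its level in the median member was common outside the 180 cells. CG7916 and CG7953 lie next to each other on 2L (13846752 to 13847799 and 13847925 to 13849223, BDGP6), and their levels went together over the members, with a Spearman rho of 0.68 over 180 cells of 1 library, given as a description.

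**Figure D2:**
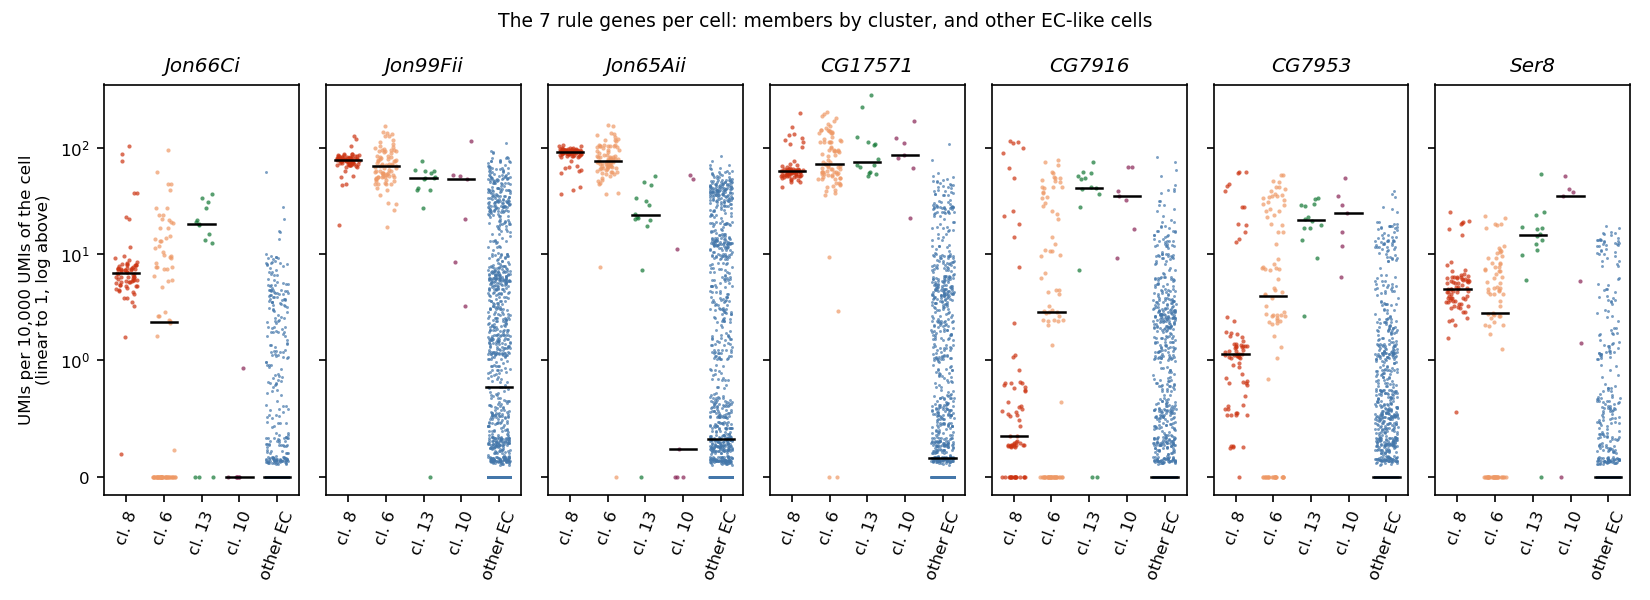
UMIs per 10000 UMIs (vertical, linear to 1 and log above) of each of the 7 genes per cell, for members in clusters 8, 6, 13 and 10 and for other EC-like cells, with a black bar at the median. Jon65Aii, Jon99Fii and CG17571 are high in nearly all members of clusters 8 and 6, while members of cluster 10 have hardly any Jon66Ci (12.4 CPM) and little Jon65Aii (485 CPM).

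Other enterocytes shared part of the set. A total of 258 non-members had at least 50 UMIs of the 7 genes per 10000, a level picked after the sums were seen, and 63 of them were all of cluster 17, 61 were in cluster 6, 55 in cluster 14, 39 in cluster 10 and 37 in cluster 13. The 63 cells of cluster 17, an EC-like cluster with PGRP-SC1a among its leading genes, had 3084 CPM of Jon99Fii and 3764 CPM of Jon65Aii but 136 CPM of CG17571, against 7536, 7902 and 7444 CPM in the 180 members. The 55 cells of cluster 14 had 5847 CPM of Jon99Fii and 3916 CPM of Jon65Aii but 39.7 CPM of CG17571 and 3.18 CPM of Ser8. Cluster 14 also had a median mitochondrial share of 14.7%, and the part of that share in its levels was not tested.

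The 39 cells of cluster 10 had 2430 CPM of CG17571, 1919 CPM of CG7916, 1486 CPM of CG7953 and 1116 CPM of Ser8, but 56.6 CPM of Jon99Fii, 55.6 CPM of Jon65Aii and 1.95 CPM of Jon66Ci. In these cells of clusters 17, 14 and 10, Jon99Fii and Jon65Aii were thus high where CG17571 was low, or the reverse. The 61 cells of cluster 6 and the 37 of cluster 13 had all of these, with Jon99Fii at 3636 and 1786 CPM, Jon65Aii at 3963 and 1661 CPM and CG17571 at 3967 and 1886 CPM. All these cells were taken by their sum of the same genes, so the levels are a description. Jon44E, which was not used to choose cells, had 3887 CPM in the members, 1090 CPM in the cells of cluster 6, 474 CPM in those of cluster 17, 299.8 CPM in those of cluster 13, 19.1 CPM in those of cluster 14 and 3.90 CPM in those of cluster 10.

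Across all genes, 6721 had at least 100 UMIs in members and other kept cells together. On the log2(CPM + 10) scale, 134 (1.99%) were more than 2-fold higher and 564 (8.39%) more than 2-fold lower in the members than in the other kept cells, and the median gene was lower by 0.19 (log2 ratio −0.19). Against the 1137 other EC-like cells, 5650 genes were compared, of which 132 (2.34%) were more than 2-fold higher and 175 (3.1%) lower, with a median log2 ratio of 0.01. These are counts past a fold in 1 library, not counts of genes that passed a test. Of the 134 higher genes, 82 were past the fold in both the shallower 90 and the deeper 90 members and 122 had the same direction in both, and of the 564 lower genes 380 and 553.

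Outside the 7 genes, the transcript that set the members apart most was Jon44E, another Jonah protease (2R, 8691448 to 8692844, BDGP6). Jon44E ranged between 0 and 66.5 UMIs per 10000 with a median of 29.7 in the 180 cells, against a median of 0 and a maximum of 38.6 in the other kept cells, and 168 members but 409 of 1800 other cells had a UMI. Only 2 other kept cells exceeded the members' median. Its level was 3887 CPM (3821 to 3955) in the members and 26.5 CPM (24.98 to 28.0) in the other kept cells, a log2 ratio of 6.74, and it was 28.1 CPM in the other EC-like cells. Free RNA held 213 CPM. The log2 ratio of Jon44E was 5.35 after thinning all cells to 2000 UMIs, 8.09 with 10% free RNA removed, and 4.23 when only the 90 cells of highest sum were taken and the rest of the 180 stood among the other cells.

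Ag5r2 followed (X, 14782962 to 14784052). It encodes a secreted protein related to the antigen 5 allergens of wasp venom. Every one of the 180 cells lay above the median of the other kept cells, with 2.29 UMIs per 10000 at the lowest, 121 at the median and 352 at the highest, against a median of 1.26 and a maximum of 150 in the others, and 1 other cell exceeded the members' median. Summed, it reached 15971 CPM (15836 to 16107) in the members and 249 CPM (244 to 253) in the other kept cells, a log2 ratio of 5.95, and of 4.91 after thinning to 2000 UMIs.

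Jon99Fi, which lies beside Jon99Fii on 3R (30488963 to 30489895 and 30487016 to 30487928), ranged between 9.69 and 473 UMIs per 10000 with a median of 179 in the members, against a median of 2.32 and a maximum of 370 in the others. No member was without it, and 5 other cells lay above the members' median. Its level was 25605 CPM in members and 645 CPM in other kept cells, a log2 ratio of 5.29, and of 3.98 after thinning. How reads shared by near-identical Jonah copies were assigned is not given in the sources used here, so the split between Jon99Fi and Jon99Fii is uncertain.

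Jon25Biii had the largest difference in CPM among the genes named for their ratio. It ranged between 71.2 and 1196 UMIs per 10000 with a median of 796 in the members, against a median of 21.5 and a maximum of 646 in the others, so no other kept cell reached the members' median and every member lay above the others' median. Summed, Jon25Biii had 78772 CPM in members, 5924 CPM in other kept cells and 7888 CPM in free RNA (log2 ratio of members over other kept cells 3.73). Jon99Cii was the most abundant Jonah transcript of the members at 163793 CPM, against 58294 CPM in the other kept cells (log2 ratio 1.49).

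Further serine protease transcripts were higher in the 180 cells. CG10472 (3L, 6061372 to 6062910) ranged between 5.35 and 589 UMIs per 10000 with a median of 206, against a median of 6.77 in the others, and had 20699 CPM against 1483 CPM (log2 ratio 3.79). CG11911 had 8522 CPM in members and 454 CPM in other kept cells (log2 ratio 4.201), and its neighbour on 2L, CG11912, had 382 CPM and 24.98 CPM (3.49). Both encode serine proteases of the trypsin fold, as does CG16749, at 2397 CPM in members and 400 CPM in other kept cells (2.55). CG11911 was not particular to the members. Among non-members with at least 50 UMIs of the 7 genes per 10000, it was at 9886 CPM in cluster 10. In those of clusters 13, 6, 17 and 14 it was at 3373, 2881, 425 and 68.3 CPM.

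Beside proteases, the named higher genes covered lipids, sugars and transport. The gene mag, for the secreted gut lipase magro, had 1990 CPM in members and 271 CPM in other kept cells (log2 ratio 2.83), Lip3, another lipase, 58.0 CPM and 1.42 CPM (2.57), and CG8093, a gene of the lipase list, 443 CPM and 72.4 CPM (2.46). The 63 cells of cluster 17 had mag at 2120 CPM, near the members. Mal-A3, a maltase, had 542 CPM in members and 58.3 CPM in other kept cells (3.01). Nha1, a sodium and proton exchanger, had 166 CPM and 14.3 CPM (2.86), Cht9, of the chitinase family, 394 CPM and 32.3 CPM (3.25), and Cyp6w1, a cytochrome P450, 134 CPM and 18.2 CPM (2.35).

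Several of these were detected, or were high, in some members only. Cht9 was found in 78 of the 180 cells and Lip3 in 80, so the median member had none of either. Lip3 was at 50.5 CPM in members of cluster 6 and 68.5 CPM in those of cluster 8, and Cht9 at 106 CPM and 381 CPM. The part of depth in these shares of cells was not tested. CG8997, whose role is not given here and which lies next to CG7916 on 2L (13843915 to 13845325), had 2736 CPM in members and 261 CPM in other kept cells (log2 ratio 3.34), but a median of 2.56 UMIs per 10000 with a maximum of 190 in members. The other named higher genes were CG3106, CG3706, CG10827, CG5804, CG31041 and CG32407, with log2 ratios between 2.62 for CG32407 and 4.92 for CG3106. Of these, CG5804 was the most abundant, with 17987 CPM in members and 1976 CPM in other kept cells (3.18).

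**Figure D3:**
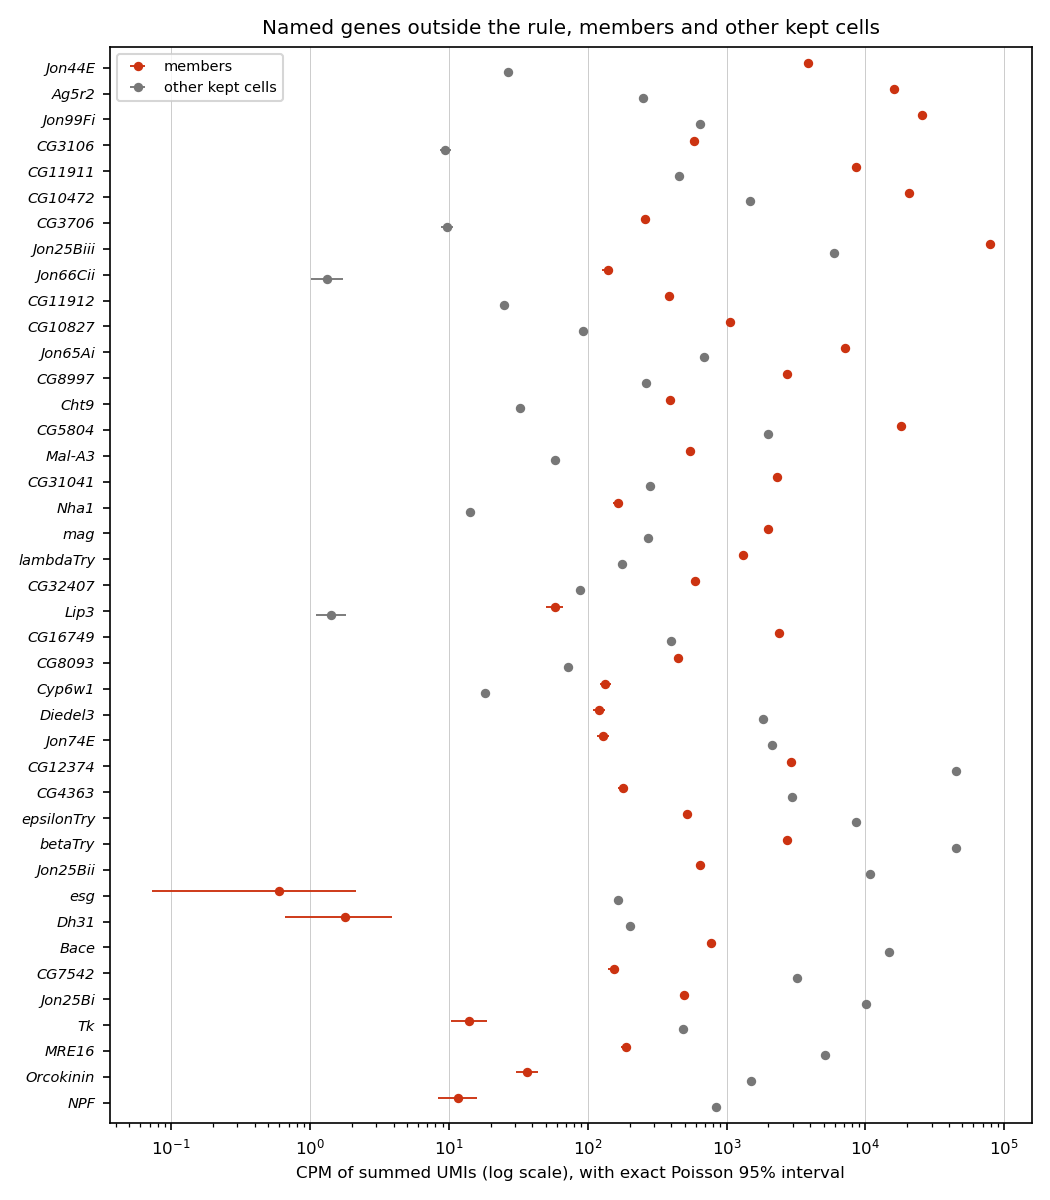
Level in CPM (horizontal, log scale, bars for exact Poisson 95% intervals) of the named genes outside the 7 in members (red) and in the other kept cells (grey), ordered by log2 ratio. Jon44E stands at 3887 CPM in members and 26.5 CPM in other kept cells at the top, and NPF at 11.7 CPM and 834 CPM at the bottom.

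Among the lower genes were hormones and progenitor genes of other cell types. NPF, a peptide hormone of enteroendocrine cells, had 11.7 CPM in members and 834 CPM in other kept cells (log2 ratio −5.28), and Orcokinin, Tk and Dh31, further peptide hormones, had log2 ratios of −5.01, −4.37 and −4.17. The gene esg, for a transcription factor that marks stem cells and enteroblasts, had 2 UMIs in the 180 cells, or 0.598 CPM (0.0724 to 2.16), and 165 CPM in other kept cells. These differences set the members against a mixture that holds stem and enteroendocrine cells. Against other EC-like cells NPF was at −1.55 and esg at −1.67.

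The 10 genes with the lowest ratio against other EC-like cells included proteases of the Jonah and trypsin families. Jon25Bi ranged between 0 and 64.5 UMIs per 10000 with a median of 1.98 in the 180 cells, against a median of 13.2 and a maximum of 375 in the other kept cells, and 18 members lay above the others' median. Summed it had 490 CPM in members and 12357 CPM in other EC-like cells (log2 ratio −4.63). Jon25Bii had 649 CPM and 13261 CPM (−4.33), and Jon74E, with its neighbour CG7542 on 3L (17548077 to 17549127 and 17549826 to 17550980), 129 CPM and 2583 CPM (−4.23), CG7542 itself 154 CPM and 3878 CPM (−4.57). Bace, an aspartyl protease, had 775 CPM in members and 18106 CPM in other EC-like cells (−4.53). The ranges of members and other cells overlapped for all of these.

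Free RNA and a few cells bear on the low levels. Jon25Bi was at 2391 CPM and CG12374, a carboxypeptidase, at 24184 CPM in free RNA, above the 490 CPM and 2906 CPM in the members. In the shallower and the deeper 90 members Jon25Bi was at 630 CPM and 476 CPM, and betaTry, a trypsin, at 5018 CPM and 2532 CPM. The 14 members in cluster 13 gave 1091 of the 1638 Jon25Bi UMIs of the members (66.6%) and 5811 of the 9188 betaTry UMIs (63.2%). With 10% free RNA removed the log2 ratio of Jon25Bi to other kept cells was −5.25, without the members of clusters 10 and 13 it was −5.75, and after thinning −3.53, against −4.34 as first given.

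The Jonah family split sharply. Of the 13 members of the family outside the rule, all with enough UMIs, 7 were more than 2-fold higher and 5 more than 2-fold lower in the 180 cells than in the other kept cells, with a median log2 ratio of 1.49, against 1.99% of genes higher and 8.39% lower over all 6721. The higher were Jon44E, Jon99Fi, Jon25Biii, Jon66Cii, Jon65Ai, Jon99Ciii and Jon99Cii. The lower were Jon25Bi, Jon25Bii, Jon74E, Jon65Aiii and Jon65Aiv, and Jon99Ci was within 2-fold at −0.40. The 13 together took 32.4% of the members' UMIs, against 16.3% in the other kept cells and 19.8% in the other EC-like cells. The 63 cells of cluster 17 had Jon25Biii at 42088 CPM and Jon25Bi at 121 CPM, so that part of the split was not particular to the members.

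Some neighbouring Jonah genes differed in direction. Jon25Biii (2L, 4949941 to 4950767) had a log2 ratio of 3.73 and Jon25Bii (4952243 to 4953136), 1476 bp away, of −4.04, with Jon25Bi beyond it at −4.34. Jon65Aiii (3L, 6050757 to 6051690) had −3.09 and Jon65Aii (6052321 to 6053215), 631 bp away, had 4.60, with Jon65Ai beyond it at 3.36. In all, 2 of the 9 pairs of neighbouring Jonah genes, those of the rule included, had 1 gene past 2-fold higher and the next past 2-fold lower. By contrast, Jon66Ci and Jon66Cii, 443 bp apart, and Jon99Fii and Jon99Fi were higher together. Jon65Aii, Jon66Ci and Jon99Fii helped to choose the cells, so pairs that hold them are a description. Only Jon25Biii and Jon25Bii were an opposite pair outside the rule. How reads of near-identical copies were shared out could not be checked in counts.

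Trypsins were split, most of them along a single array. Of 12 with enough UMIs, 5 were higher and 6 lower, beside 1.99% of genes higher and 8.39% lower over all 6721. These counts include Ser6 and yip7, which are not in the array given next. From left to right on 2R between 11336840 and 11357537, lambdaTry had a log2 ratio of 2.83, kappaTry 1.62, zetaTry 1.05, etaTry 0.93, thetaTry −1.53, alphaTry −2.68, epsilonTry −4.01, betaTry −4.02, deltaTry −1.05 and iotaTry 1.64. The left end was thus higher and the middle lower in the members, with the split between near-identical trypsin copies, such as alphaTry and betaTry or deltaTry and gammaTry, as uncertain as for the Jonah genes. Without the deeper 90 members zetaTry had the opposite sign, at −0.15. The most abundant, betaTry and alphaTry, had 2746 CPM and 8332 CPM in members, against 44681 CPM and 53536 CPM in other kept cells, and the trypsin list as a whole 2.17% of UMIs, against 12.2%.

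**Figure D4:**
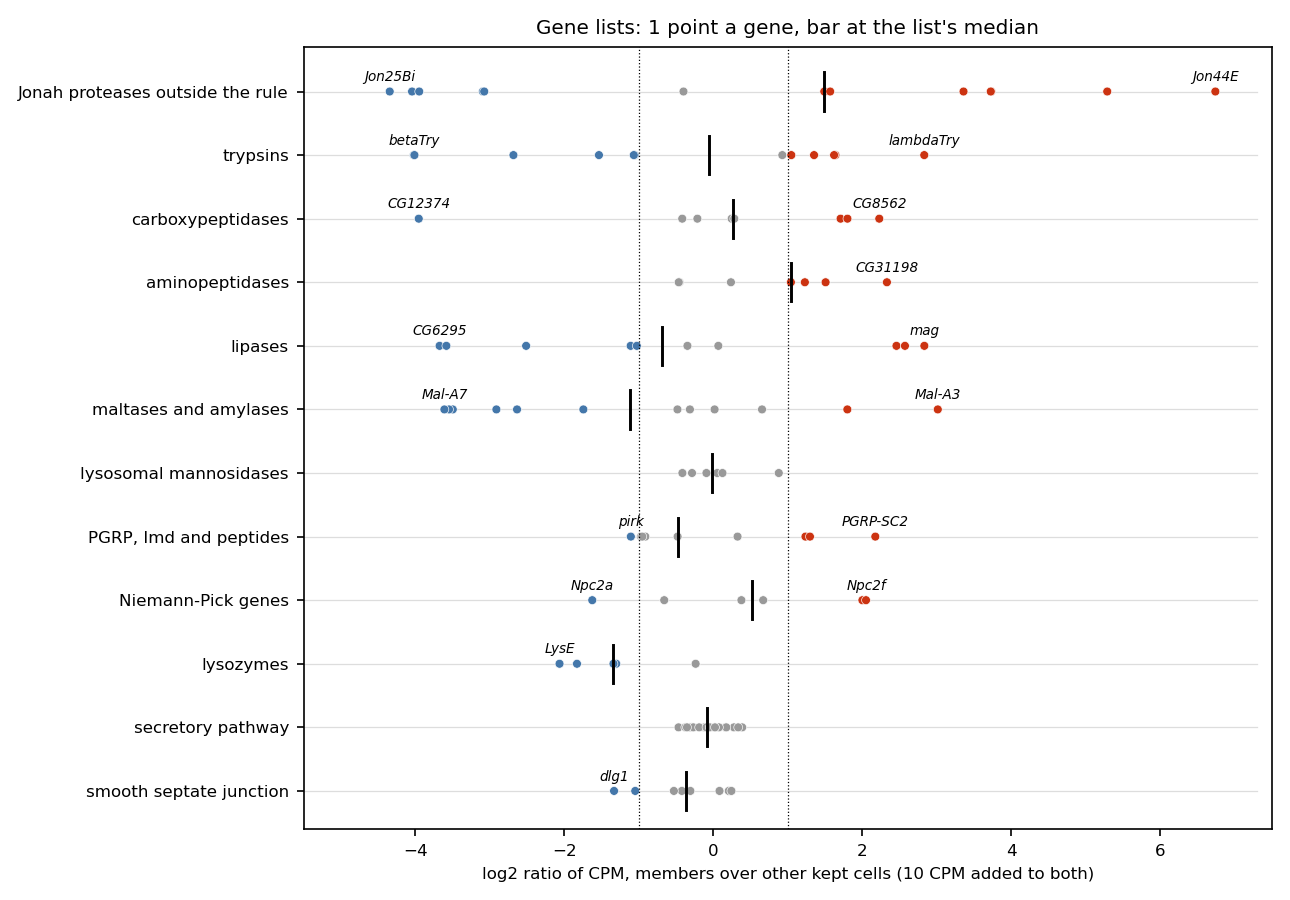
Log2 ratio of CPM in members over other kept cells (horizontal, 10 CPM added to both) for each gene with at least 100 UMIs, by list, with a bar at the list's median and dotted lines at 2-fold. Jonah proteases reach from −4.34 for Jon25Bi to 6.74 for Jon44E, while all 20 secretory pathway genes lie within 2-fold.

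Exopeptidases take amino acids off the ends of peptides. Of 7 aminopeptidase genes with enough UMIs, 4 were higher and none lower against other kept cells, and 2 of 7 higher against other EC-like cells, led by CG31198 at 2581 CPM in members and 505 CPM in other kept cells (log2 ratio 2.33), with CG31233 at 1.51. Of 8 carboxypeptidase genes, 3 were higher and 1 lower. The shares over all genes were 1.99% higher and 8.39% lower against other kept cells, and 2.34% higher against other EC-like cells. CG17633 had 9613 CPM in members and 2933 CPM in other kept cells, and CG8562 1931 CPM and 404 CPM. CG12374 was the lower one, at 2906 CPM in members and 45155 CPM in other kept cells, and it carried the list, whose share was 1.55% of the members' UMIs and 4.94% of those of other kept cells. The 63 cells of cluster 17 had CG17633 at 13467 CPM and CG8562 at 5039 CPM, above the members.

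Lipases and sugar-splitting enzymes were mixed. The counts below stand beside 1.99% of genes higher and 8.39% lower over all genes. Of 10 lipases, 3 were higher, as given above, and 5 lower, such as CG6295 at 284 CPM in members and 3740 CPM in other kept cells (log2 ratio −3.67). The lower lipases CG6277 and CG6283, at −1.11 and −1.03, had the opposite sign without the deeper 90 members, at 0.46 and 0.14. CG6277 was also at 0.35 under the mitochondrial limit of 10%. Of 12 maltases, amylases and galactosidases, 2 were higher and 6 lower. Mal-A3 and Mal-A4 were at 3.01 and 1.80, but Mal-A1, Mal-A6 and Mal-A7, which stand in the same array on 2R, at −3.50, −3.55 and −3.61. The amylases, near-identical copies whose split is uncertain, did not pass 2-fold, with Amy-p at 4655 CPM in members and 4598 CPM in other kept cells. None of 6 lysosomal mannosidases passed 2-fold, and LManV was at 420 CPM and 224 CPM. The lysozymes, which break bacterial cell walls, were lower for 4 of 5, led by LysE at −2.06, and LysX and LysP had the opposite sign without the deeper 90 members. That count ran between 1 and 5 over 19 alternatives, with 1 after thinning to 2000 UMIs and 2 with each cell weighing the same. The lysozyme list had 365 UMIs in all members.

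Genes of immunity and sterol handling had a few high members. PGRP-SC2, an enzyme that degrades peptidoglycan, had 2886 CPM in members and 631 CPM in other kept cells (log2 ratio 2.18), and PGRP-SC1a and PGRP-SC1b, its relatives, 1.24 and 1.301, so that 3 of 9 genes of the immune list were higher and 1, the Imd inhibitor pirk, lower. PGRP-SC2 was at 11670 CPM in the 63 cells of cluster 17, above the members. Of 6 Niemann-Pick genes, which handle sterols, 2 were higher, Npc2f at 373 CPM in members and 82.5 CPM in other kept cells and Npc2d at 184 CPM and 38.3 CPM, and 1 was lower. Over all genes 1.99% were higher and 8.39% lower, so 1 lower gene of 9 lay near that share.

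Genes of general cell machinery lay mostly within 2-fold. None of 20 secretory pathway genes was past 2-fold in either direction, with Hsc70-3 at 233 CPM in members and 288 CPM in other kept cells and Pdi at 298 CPM and 226 CPM, and none of 63 nuclear genes of the respiratory chain. Of 81 ribosomal protein genes 1 was lower, and of 21 proton pump subunits 1. The smooth septate junction genes of enterocytes, Ssk, mesh and Tsp2A, were within 2-fold, while dlg1 and l(2)gl were lower. Of 10 metal genes 4 were lower and none higher. Among the lower were the ferritins Fer1HCH at 923 CPM in members and 2030 CPM in other kept cells and Fer2LCH at 844 CPM and 1830 CPM. The direction of the metal list was not steady. Without the deeper 90 members 4 metal genes were higher and 0 lower, and with 360 members 1 was higher and 1 lower. Over 19 alternatives the higher and the lower metal genes each ran between 0 and 4. Of 22 stress genes 3 were lower and none higher. These counts stand beside 8.39% lower over all genes, and against other EC-like cells none of 20 stress genes and none of 7 septate junction genes was past 2-fold.

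Midgut transcription factors were counted in the same way. Of 13 with enough UMIs, 1 (vnd) was lower and none higher, near the 8.39% lower and 1.99% higher over all genes, and against other EC-like cells none of 12 was past 2-fold. The enterocyte gene nub was at 42.4 CPM in members and 37.3 CPM in other kept cells, and cad, a gene of posterior gut identity, at 22.7 CPM and 9.65 CPM (log2 ratio 0.74). The genes lab and Ptx1, known from the copper cell region, gave 1 and 50 UMIs in all members. At these counts a difference in single cells was not detectable.

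Clock genes, the subject of the study, were scarce in the members at this single time of day. The clock gene tim had 51.7 CPM in members, 81.2 CPM in other kept cells and 60.6 CPM in other EC-like cells. Pdp1 had 210 CPM, 455 CPM and 291 CPM in the same order, while per gave 5 UMIs and Clk 9 UMIs in all 180 cells. Against other kept cells 3 of 9 clock genes (Pdp1, vri and dco) were lower, beside 8.39% of all genes. That count ran between 0 and 5 over 19 alternatives. Against other EC-like cells none of 8 was past 2-fold in either direction.

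Stem, progenitor and enteroendocrine markers were low in the members. Of 13 stem and progenitor genes with enough UMIs, 12 were lower and none higher than in the other kept cells, and of 17 enteroendocrine genes 16 were lower and none higher, in a comparison whose other cells include the ISC-like and EE-like cells. Against other EC-like cells, 2 of 12 stem and progenitor genes and 6 of 15 enteroendocrine genes were lower and none higher. Summed, the stem and progenitor list took 0.0137% of UMIs in members, 0.138% in other kept cells and 0.0335% in other EC-like cells. The defining enteroendocrine gene pros had 20 UMIs in the 180 cells, the stem cell gene Dl 1 UMI, and the muscle genes Mhc, Mlc1 and Act57B none. The muscle list of 14 genes had 294 UMIs in the members. Of its 8 genes with enough UMIs, 1 was lower and 7 were within 2-fold, beside 8.39% lower over all genes. Against other EC-like cells none of the 8 was past 2-fold. The neuron gene elav had 5 UMIs, and hemocyte and fat body genes were below the minimum of 100 UMIs in members and other cells together. Of 44 enterocyte genes, 14 were higher and 18 lower. The enterocyte list consists mostly of digestive enzymes, and the members lay on both sides of the other cells in it.

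Among the 180 cells, those of clusters 6 and 8 were alike in the 7 genes but differed in other transcripts and in depth. Of 1293 genes compared, 50 were more than 2-fold higher and 67 more than 2-fold lower in members of cluster 6 than in those of cluster 8. CG12057 had 226 CPM in cluster 6 and 4880 CPM in cluster 8, LManV, a lysosomal mannosidase, 38.5 CPM and 525 CPM, and CG18585, a carboxypeptidase, 31.2 CPM and 481 CPM. Jon44E was at 2908 CPM and 4577 CPM in them, and Ag5r2 at 11525 CPM and 18343 CPM. Depth, with medians of 3463.5 and 36563 UMIs, moved with this split, and its part was not tested.

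The 7 members in cluster 10 and the 14 in cluster 13 stood apart. Jon44E was at 62.2 CPM in the members of cluster 10 and Jon66Ci at 12.4 CPM, from 1 UMI, with Jon65Aii at 485 CPM and Jon99Fii at 3024 CPM. They carried CG17571 at 9034 CPM and Ser8 at 1543 CPM, with CG11911 at 21416 CPM and CG10472 at 43069 CPM. The cells in cluster 13 had Jon44E at 956 CPM and Jon66Ci at 2320 CPM, but also betaTry at 19147 CPM and Jon25Bi at 3595 CPM, which were 855 CPM and 155 CPM in cluster 8. Their median mitochondrial share was 0.908%, against 5.01% in the members of cluster 8. With these 21 cells left out, the family median of the Jonah proteases was 1.56 in place of 1.49.

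Cell by cell, the transcripts that were not used to choose the cells went with some of the 7 and not with others. Over the 180 cells of this 1 library, Spearman's rho was 0.77 between Jon44E and Ag5r2, 0.80 between Ag5r2 and Jon99Fi and 0.70 between Jon65Aii and Jon65Ai. It was −0.54 between CG7916 and Jon99Fi and −0.60 between CG7953 and Jon99Fi. All are descriptions over cells that share a library and values that share a denominator, and Jon44E and Jon99Fi also went with UMIs per cell, at 0.42 and 0.45.

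The 180 cells were set beside 3 groups of cells chosen in the same way on other enzymes, and shared cells with the first and the second. Of the 180 mature adult cells highest in Jon25Bi, Jon25Bii, Jon25Biii and CG6295, 124 were members, of the 180 highest in lysosomal mannosidases 49, and of the 180 highest in maltases none. In the 56, 131 and 180 cells left of these groups, Jon44E was at 7.93, 2.54 and 9.08 CPM, against 3887 CPM in the members. Jon25Biii was at 15971, 1600 and 6323 CPM, against 78772 CPM in the members, while Jon25Bi was at 28809, 6655 and 14898 CPM, against 490 CPM. The Jon25B group was chosen partly on Jon25Biii and then lost its 124 members, so its levels are given as a description. The non-members of clusters 17 and 6 with at least 50 UMIs of the 7 genes per 10000 had Jon25Biii at 42088 and 36452 CPM.

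To compare shares of cells at 1 depth, each cell was thinned at random to 2000 UMIs, which left out 25 members and 333 other kept cells. A Jon44E UMI was found in 91.6% of members (exact interval 86.1% to 95.5%), 8.59% of other kept cells and 2.68% of 224 ISC-like cells. The ISC-like cells should lack digestive proteases and so show a background, but that of deeper cells. Before thinning the shares were 93.3%, 22.7% and 15.6% at median depths of 8039.5, 13791 and 22095 UMIs. Ag5r2 was found in 100% of thinned members, 33.5% of other kept cells and 11.2% of ISC-like cells, and CG3106 in 48.4%, 3.14% and 0.446%.

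Of the 7 genes, thinned shares for CG17571 were 98.1% of members, 20.04% of other kept cells and 6.70% of ISC-like cells, and for Jon66Ci 65.2%, 6.27% and 2.23%. Jon66Ci therefore remained the sparser marker at equal depth. Unthinned, CG17571 was found in 98.3%, 50.4% and 37.3% and Jon66Ci in 72.8%, 18.2% and 7.11%. Jon25Bi, in contrast, was found in 45.2% of thinned members, 66.2% of other kept cells and 15.2% of ISC-like cells. The members thus lay between the other kept and the ISC-like cells. ISC-like cells had a median of 22095 UMIs before thinning, against 8039.5 in members, so their share need not be the members' background. Free RNA held more Jon25Bi than the members, as given above, so a level above background was not shown. A UMI of esg was found in 0 of 155 thinned members, which allows a share of up to 1.94% of cells with a UMI at that depth, and in 82.6% of ISC-like cells. Unthinned, 2 of the 180 members had one.

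The rule fixed the count at 180 mature adult cells and set the threshold at the lowest of them, so the other stages are described against that sum with no comparison of shares. At or above it lay 0 of 2013 early pupal cells, where 3 cells of the total would be 0.149% (exact upper limit 0.183%), and 0 of 1197 immature adult cells, where 3 cells would be 0.251% (exact upper limit 0.308%). The highest sum was 5.24 among early pupal cells, 149.2 among immature adult cells and 541.4 among mature adult cells. The 7 genes together gave 1.18 CPM (0.810 to 1.67), 151 CPM (146 to 157) and 2865 CPM (2850 to 2881) in that order of age. Stage and library cannot be told apart with 1 library each.

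The immature adult held a few cells close to the set. Its highest cell had 924 UMIs of the 7 genes among 61925 UMIs, with 307 of Jon99Fii, 607 of Jon65Aii and none of CG17571, and 4059 UMIs of Jon25Biii. In all, 24 immature adult cells had at least 10 UMIs of the 7 genes, against 0 early pupal cells, and 729 mature adult cells did. When cells were thinned to 2000 UMIs, or when the mitochondrial limit was 10%, 1 immature adult cell reached the lowest member.

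The genes outside the 7 were not all late. Over all kept cells of a stage, Jon44E had 0.0740 CPM in the early pupa, 6.43 CPM in the immature adult and 298 CPM in the mature adult, and Jon25Biii 0.0370, 478 and 11046 CPM. Ag5r2 was high at both ends, with 622, 86.8 and 1354 CPM, as was CG10472, with 1306, 191 and 2834 CPM. CG11912 was highest in the early pupa, with 2484, 74.2 and 50.1 CPM, and CG5804 differed little, with 2815, 2849 and 3102 CPM. So of the transcripts that set the 180 cells apart in the mature adult, some were abundant in pupal cells that had hardly any of the 7.

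**Figure D5:**
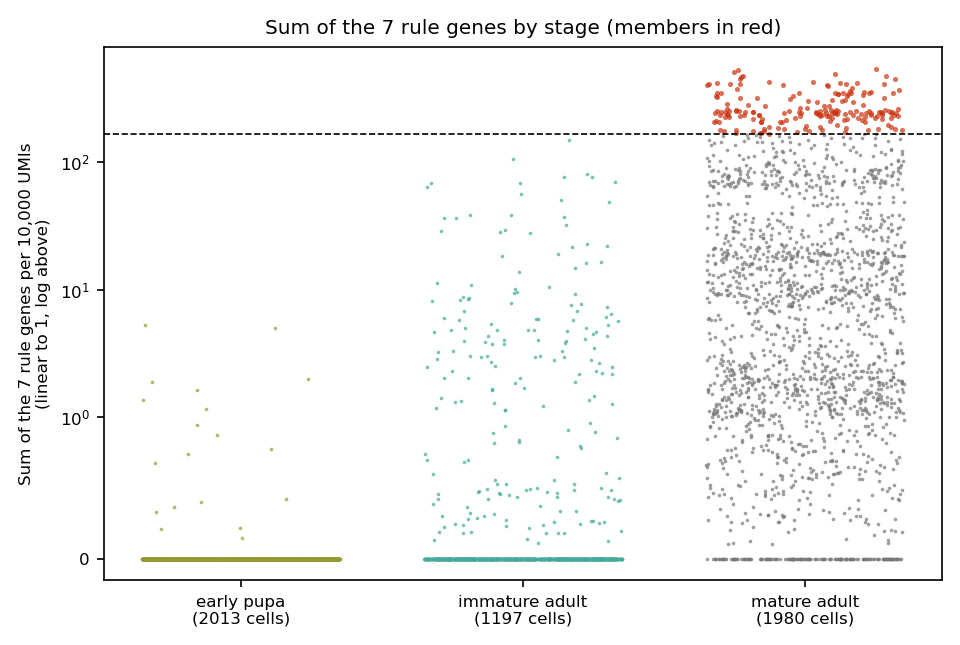
Sum of the 7 transcripts per 10000 UMIs (vertical, linear to 1 and log above) in each kept cell of the 3 stages, early pupa at left and mature adult at right, with members in red and a dashed line at the lowest member. The highest cell stands at 5.24 (early pupa), 149.2 (immature adult) and 541.4 (mature adult).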

How the data were processed

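Single-cell libraries of the 10x Genomics 3′ kit were counted by the authors with Cell Ranger 3.0.2 on release 6.25 of the fly genome, and the deposited values are UMI counts per gene and barcode, without normalization. The kit counts transcript ends, so levels were not divided by gene length. Positions come from the BDGP6 annotation, which held 47 of 48 named genes by identifier, esg being the exception.

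Members and gene lists were chosen with earlier results of these data known. Levels are summed UMIs scaled to CPM, compared as log2(CPM + 10) for genes with at least 100 UMIs in both groups together, and called past 2-fold. Intervals are exact (Poisson for levels, Clopper-Pearson for shares), cover counting error only, and with 1 library per stage no test was made. Named genes were the 7 of the rule, the 25 highest by log2 ratio against other kept cells with at least 100 UMIs in members and the 10 lowest with at least 300 UMIs in the others, and the 15 highest and 10 lowest against other EC-like cells. From each list, those of highest level and of most extreme ratio are named. Other names in the accounts of lists, clusters, stages and thinned shares were chosen after their values were seen.

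Cells were clustered with scanpy 1.11.5 and leidenalg 0.10.2 (2000 variable genes, 14 components, 20 neighbours, resolution 0.5), and clusters were named from marker lists. The 7 genes of the rule were left out of both steps. Scrublet called 3 of 1980 cells, too few for a working call, so doublets were kept. Python 3.11.15, numpy 2.4.6, scipy 1.17.1, pandas 2.3.3 and matplotlib 3.10.9 were used, and the computation was tested on simulated data. The alternatives were 56 listed at the outset and 12 added after seeing the data. The libraries' total UMIs of kept cells were 27026674 (early pupa), 21629263 (immature adult) and 47585248 (mature adult).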

Additional observations from a re-analysis of the deposited data

How the results depend on the processing

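No paired analysis was possible because each stage has 1 library. In the 19 alternatives tried for them, the Jonah proteases outside the rule had 7 higher and 5 lower genes each time. All 41 named genes outside the rule kept their direction in every alternative, and all kept their side of 2-fold except 1 of 41 without the deeper 90 members. They had been picked for extreme ratios in these same cells, which favours this outcome. The sizes were less steady. Of the values for single genes in the alternatives, those of the rule and shares of cells included, 514 lay outside the counting interval first given and 332 inside. The count of genes lower than in other kept cells, 564, was 322 with 360 members, 948 with each cell weighing the same, 1034 with a denominator without the 50 most abundant genes, 1733 with 1 CPM added and 170 with 50 CPM added. The count of higher genes, 134, was 76 after thinning to 2000 UMIs and 73 with 50 CPM added. Against other EC-like cells, the 175 lower genes became 116 with 360 members and the 132 higher genes 81 with each cell weighing the same. Of called genes 19.2% were higher, against 30.04% with 50 CPM added and 8.85% with each cell weighing the same, and against EC-like cells 43.0% were higher, against 26.2% with equal weights and 54.2% with 360 members. The median gene moved to −0.45 after thinning and to −0.36 with equal weights or without the 50 most abundant genes, and to −0.13 with 360 members and −0.06 with 50 CPM added, against −0.19.

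The median log2 ratio of the Jonah proteases, 1.49, was 1.47 with 90 members, 1.17 with 360, 1.68 with equal weights, 1.53 with the 7 genes out of the denominator, 1.33 with the 50 most abundant out, 1.43 with under 10% mitochondrial UMIs, 1.67 after thinning, 1.499 without the cells of highest doublet score, 1.46 with a sum of logs, 1.48 without Jon99Fii in the sum and 1.56 with 10% free RNA removed. In alternatives chosen after seeing the data it was 1.56 without clusters 10 and 13, 1.53 without the shallower 90 members and 1.04 without the deeper 90 members. The count of cells of other stages at the lowest member's sum, 0, was 1 after thinning and 1 with under 10% mitochondrial UMIs. The cause of these moves was not tested. The choice itself shared 154 of 180 members when logs were summed and 156 under the mitochondrial limit of 10%.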
